A study of Mus musculus with 20 samples.

Results

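Chsy1 encodes a chondroitin synthase, and it was followed here together with 9 other enzymes that build glycosaminoglycans, the long sugar chains of the extracellular matrix. The 10 genes were listed by mouse symbol among the 35226 genes of a table of RNA-Seq counts from 20 mouse tumors. Chsy1 was chosen by its CPM values in cisplatin and vehicle tumors, where it fell tightly with cisplatin, so its difference between cisplatin and vehicle tumors is given below as a description, with no test. The other 9 genes were listed as enzymes of the same pathways: Chsy3, Chpf, Chpf2, Csgalnact1, Csgalnact2, Xylt1, Chst3, Chst11 and Has2.

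Every tumor grew from LLC1 (Lewis lung carcinoma) cells, an established mouse line, placed under the skin of young adult male C57BL6/J mice, whose own immune, vascular and stromal cells entered the tumor. Once tumors had reached a set volume, mice received vehicle, KW6002 (istradefylline), an antagonist of the 2A subtype of adenosine receptor, the platinum drug cisplatin, or cisplatin and KW6002 together, called cotreatment here. Each group held 5 tumors and each tumor gave 1 library. The comparisons ask how cisplatin and KW6002, alone and together, changed the tumor transcriptome.

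Chondroitin sulfate is assembled on a core protein in the Golgi. A xylosyltransferase (Xylt1 or Xylt2) places the first sugar, a short linkage region follows, Csgalnact1 and Csgalnact2 start the chondroitin chain, Chsy1 and Chsy3 lengthen it together with the polymerizing factors Chpf and Chpf2, and sulfotransferases such as Chst3 (at the 6 position of N-acetylgalactosamine) and Chst11 (at the 4 position) modify it. Hyaluronan differs in being unsulfated, free of a core protein and made at the plasma membrane by Has enzymes, of which Has2 is one. Both polymers are abundant in the stroma of solid tumors.

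Libraries held 28.4 to 41 M counts in genes. Levels are given in CPM, each count divided by the library size in M after TMM correction. A gene was called changed when the adjusted P value of edgeR's quasi-likelihood test was under 0.05 and the log2 fold change was at least 0.32 in size. Of the 10 genes, 9 passed the filter on low counts; Chsy3, with 1 to 11 reads per tumor, did not. Markers of some other cells moved with treatment. The 7 endothelial markers summed to 144 to 212 CPM in vehicle, 124 to 201 in KW6002, 70.6 to 98.1 in cisplatin and 76.8 to 116 in cotreatment tumors, and 7 of 7 were called lower in cisplatin than in vehicle and 5 of 7 in cotreatment than in KW6002 tumors. The 6 neutrophil markers summed to 44.7 to 120 CPM in vehicle and 48.5 to 147 in KW6002 tumors. They summed to 13.8 to 67.3 in cisplatin and 13.6 to 32.4 in cotreatment tumors. Of the 5 tested (Ly6g did not pass the filter), 4 were called lower in cotreatment than in KW6002 tumors. The 8 T and NK cell markers summed to 2.37 to 7.91 CPM in vehicle, 3.84 to 27.0 in KW6002, 3.66 to 11.7 in cisplatin and 2.39 to 5.65 in cotreatment tumors, and 5 of 8 were called lower in the same comparison. Of 9 fibroblast markers, 3 were called lower in cisplatin than in vehicle tumors, and 2 lower and 2 higher in cotreatment than in KW6002 tumors. Beside these counts, 10.6% of all genes tested were called in either direction in cisplatin with vehicle. In cotreatment with KW6002, 10.7% of all genes were called lower and 12.6% higher. With so few markers per list these counts are a description. The part of such marker shifts in the results below was not tested. In whole tumors, fewer cells of a type and less RNA per cell cannot be told apart. The epithelial marker Epcam did not pass the filter on low counts.

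**Figure D1:**
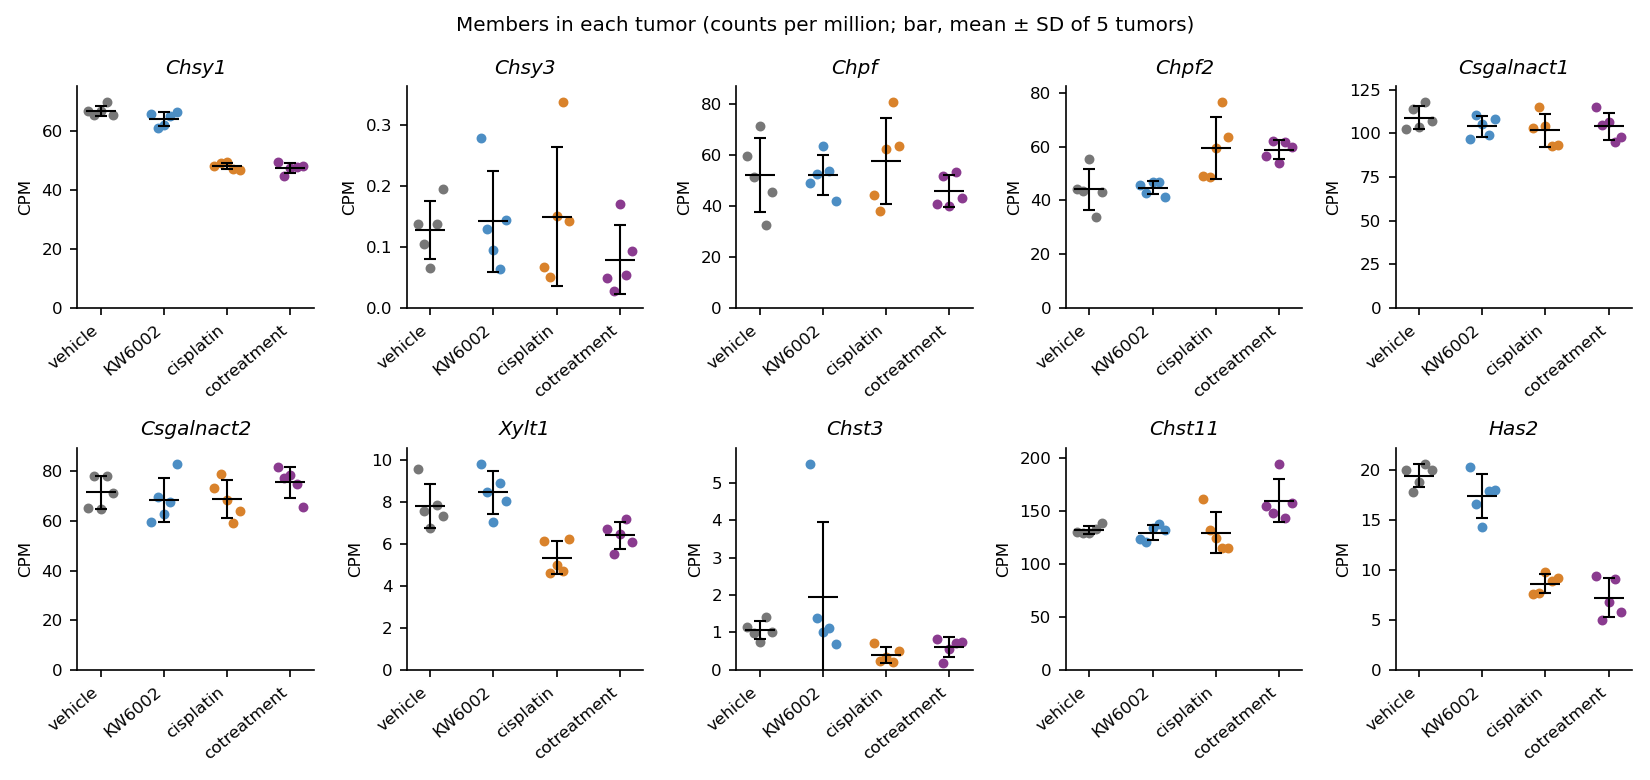
Level of each of the 10 genes in every tumor, in CPM, by treatment group; points are tumors, bars are mean ± SD of 5 tumors, and each panel has its own axis from 0. Chsy1 and Has2 in the cisplatin and cotreatment tumors lay below every vehicle and KW6002 tumor, whereas Csgalnact1 overlapped among all groups.

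Chsy1 (ENSMUSG00000032640, chromosome 7, 66109515 to 66173798 on GRCm38, plus strand) was lower in both groups that received cisplatin. In vehicle tumors it stood at 66.6, 65.3, 66.6, 69.5 and 65.4 CPM. In cisplatin tumors it stood at 48.1, 49.0, 49.4, 47.2 and 46.8 CPM. These groups did not overlap, and the log2 difference, the value for which the gene was picked, was -0.47.

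The difference between KW6002 and cotreatment tumors was not the value by which Chsy1 was picked, but results of all 4 groups were known at the choice, so its tests are not fully independent of it. KW6002 tumors held Chsy1 at 65.6, 60.8, 62.0, 65.1 and 66.3 CPM, and cotreatment tumors at 49.4, 44.7, 47.5, 47.8 and 48.1 CPM. Every cotreatment tumor was below every KW6002 tumor, with a mean of 47.5 ± 1.71 against 64.0 ± 2.38 CPM (SD, n = 5). The log2 fold change was -0.43 in the fit of all 20 tumors, whose estimate of spread also draws on the tumors by which the gene was picked, so no P is given from it. Fitted to these 10 tumors only, the log2 fold change was -0.42 (adjusted P = 3.67e-05, edgeR). An exact two-sided permutation test of the log2 CPM gave P = 0.00794, the smallest that the arrangements of these tumors allow. Against the vehicle tumors, which served in picking the gene, the log2 difference of the cotreatment tumors was -0.49, given with no test.

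The remaining comparisons of Chsy1 contain tumors by which it was picked and are also given with no test. KW6002 tumors overlapped with vehicle tumors, but 3 of 5 lay below the lowest vehicle tumor, and the log2 difference was -0.06. Cotreatment tumors overlapped with cisplatin tumors, with a log2 difference of -0.02. The interaction, which is the difference with cisplatin in the presence of KW6002 less that in its absence, was 0.04. Chsy1 values were close together within groups. The coefficient of variation was 3.72% in KW6002 and 3.59% in cotreatment tumors. Medians were 8.24% and 8.48% over 12744 genes with a mean of at least 50 counts. Chsy1 was picked for a tight fall, and its mean of 1830 counts lies well above that limit. Nothing is therefore read from this contrast.

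Library code numbers fell into a lower set (8 tumors) and a higher set (12 tumors), with a gap between them. These sets are called here the earlier and the later run. The split was read from the code numbers alone. The sources used here do not say whether the sets were prepared or sequenced apart. Within the earlier run Chsy1 averaged 63.2 CPM in 2 KW6002 and 47.2 CPM in 3 cotreatment tumors. Within the later run it averaged 64.5 CPM in 3 KW6002 and 47.9 CPM in 2 cotreatment tumors. Reads of Chsy1 could be shared with the antisense gene Gm26827 over 148 of 4176 exon bases, but Gm26827 held at most 2 reads in any tumor.

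Chpf2, a polymerizing factor that works beside Chsy1 (ENSMUSG00000038181, chromosome 5, 24586741 to 24594556, plus strand), moved the other way. Its promoter is printed with that of Chsy1 because these are the chain-lengthening enzymes that changed, in opposite directions. Both are the 250 bases before the RefSeq start on GRCm38.p6, plus strand, at chr7:66109242-66109491 and chr5:24586494-24586743, and 6 of the 10 genes had such an entry. Capitals mark matches on either strand to any of 6 motifs. The GC box was searched as GGGCGG and the CAAT box as CCAAT. The E-box was searched as CACGTG. The remaining searches were for the TATA box as TATAAA, the cAMP response element as TGACGTCA, and the cell cycle homology region as TTTGAA.
Chsy1: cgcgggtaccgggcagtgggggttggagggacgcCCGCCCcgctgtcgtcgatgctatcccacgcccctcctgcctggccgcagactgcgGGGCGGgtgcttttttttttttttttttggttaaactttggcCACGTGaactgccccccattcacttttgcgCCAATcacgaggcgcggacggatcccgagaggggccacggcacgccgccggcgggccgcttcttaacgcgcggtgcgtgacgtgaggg
Chpf2: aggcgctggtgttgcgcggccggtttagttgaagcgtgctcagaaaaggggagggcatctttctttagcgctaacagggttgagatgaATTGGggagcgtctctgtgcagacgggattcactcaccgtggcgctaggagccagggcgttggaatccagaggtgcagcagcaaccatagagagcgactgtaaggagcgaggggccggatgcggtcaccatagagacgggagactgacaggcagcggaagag
Chsy1 held 2 matches to the GC box, 1 to the CAAT box and 1 to the E-box, and Chpf2 held 1 to the CAAT box. Over 32851 promoter windows of the same length, 32.7% held a GC box, 33.8% a CAAT box and 6.02% this E-box. Such matches describe letters and not bound sites.

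Chpf2 stood at 44.3, 43.5, 55.4, 33.9 and 43.2 CPM in vehicle tumors and at 49.2, 48.7, 59.4, 76.4 and 63.5 CPM in cisplatin tumors. Vehicle replicate 3 reached into the cisplatin range, while 5 of 5 cisplatin tumors were above the vehicle mean. The log2 fold change was 0.43 (95% interval 0.19 to 0.67; adjusted P = 0.0131, edgeR), and it was no longer called when the test used those tumors alone (adjusted P = 0.0754, edgeR). Cotreatment exceeded vehicle by 0.42 (adjusted P = 0.00716, edgeR), a call lost within the later run (0.48, adjusted P = 0.0536, edgeR). KW6002 tumors held 45.8, 42.7, 46.8, 46.8 and 41.4 CPM and cotreatment tumors 56.4, 62.1, 53.9, 61.7 and 59.8 CPM. Here the groups did not overlap, and the log2 fold change came to 0.39 (95% interval 0.16 to 0.63; adjusted P = 0.0103, edgeR). Within the later run alone the value was 0.44 but was not called (adjusted P = 0.107, edgeR). The cisplatin tumors of the earlier run averaged 48.9 CPM and those of the later run 66.4 CPM. Cisplatin replicates 4 and 5, highest in Chpf2, had tumor epithelium markers summing to 5260 and 5090 CPM, against 3310 to 3730 CPM in the other cisplatin tumors. That list of markers holds Vim beside keratins, so its sum does not measure epithelium alone. Fibroblast markers of cisplatin replicates 4 and 5 summed to 14400 and 12300 CPM, against 8630 to 9860 CPM in the other cisplatin tumors. The part of these differences in the Chpf2 result was not tested. Smarcd3, on the opposite strand, shares 2466 of the 5588 exon bases of Chpf2 and stood at 7.52 to 12.8 CPM; whether counting used strand is not given in the sources used here.

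The ratio of Chsy1 to Chpf2 within a tumor does not depend on library scaling. Per exon base it was 2.08 ± 0.409 in vehicle, 1.92 ± 0.137 in KW6002, 1.12 ± 0.22 in cisplatin and 1.09 ± 0.0907 in cotreatment tumors (SD, n = 5). The lowest ratio without cisplatin was 1.61 and the highest with cisplatin was 1.35, so the groups separated. Since the choice of Chsy1 enters this ratio, it is given with no test.

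**Figure D2:**
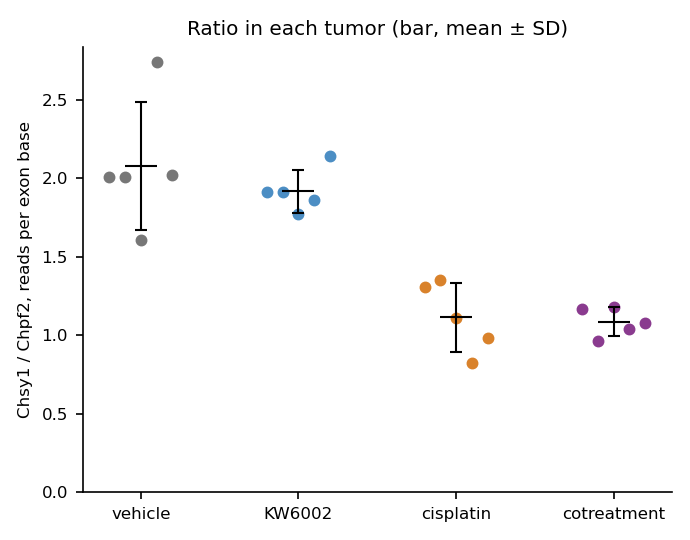
Reads per exon base of Chsy1 divided by those of Chpf2 in every tumor, by group; points are tumors and bars are mean ± SD of 5 tumors. All 10 tumors that received cisplatin lay at or below 1.35, and all 10 others at or above 1.61.

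Chpf, the other polymerizing factor (ENSMUSG00000032997, chromosome 1), passed no test. It varied widely, from 32.5 to 71.3 CPM in vehicle, 42.1 to 63.3 in KW6002, 38.0 to 80.6 in cisplatin and 39.8 to 53.1 in cotreatment tumors. The same tumors were highest for Chpf and Chpf2 in the vehicle (replicate 3) and cisplatin (replicate 4) groups. The log2 fold change of cisplatin with vehicle was 0.15 (95% interval -0.27 to 0.57; adjusted P = 0.655, edgeR), an interval that includes changes as large as that of Chpf2.

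The chain initiators did not pass the test in any comparison. Csgalnact1 averaged 108.8 ± 6.63, 103.9 ± 5.96, 101.6 ± 9.21 and 103.9 ± 7.88 CPM in vehicle, KW6002, cisplatin and cotreatment tumors (SD, n = 5). Between cotreatment and KW6002 its log2 fold change had a 95% interval of -0.14 to 0.14, which leaves out a change of the size seen for Chsy1. Csgalnact2 averaged 71.5 ± 6.53, 68.5 ± 9.03, 68.8 ± 7.75 and 75.6 ± 6.18 CPM in the same order, and its interval for cotreatment with KW6002 was -0.04 to 0.33. Chsy3, the paralog of Chsy1, held 0.0275 to 0.337 CPM over the 20 tumors, too few reads for a comparison.

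Has2, a hyaluronan synthase (ENSMUSG00000022367, chromosome 15, 56665627 to 56694539, minus strand), was lower in both groups that received cisplatin, and by more than Chsy1. Vehicle tumors held 579, 507, 574, 748 and 614 reads, or 17.8 to 20.6 CPM, and cisplatin tumors stood at 7.58, 7.69, 9.74, 8.86 and 9.19 CPM. The groups were far apart, with a log2 fold change of -1.17 (95% interval -1.46 to -0.88; adjusted P = 1.66e-05, edgeR). KW6002 tumors held 20.3, 16.6, 14.3, 17.8 and 18.0 CPM, and cotreatment tumors 9.37, 4.99, 6.75, 9.08 and 5.80 CPM. These groups did not overlap either, and the log2 fold change was -1.27 (95% interval -1.56 to -0.98; adjusted P = 1.41e-06, edgeR). Cotreatment with cisplatin gave -0.26 (95% interval -0.55 to 0.04; adjusted P = 0.28, edgeR), and KW6002 with vehicle gave -0.16 (95% interval -0.44 to 0.12; adjusted P = 1.0, edgeR). The antisense gene Has2os shares 182 of the 4237 exon bases and held at most 1.27 CPM.

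Xylt1, which starts the linkage region (ENSMUSG00000030657, chromosome 7), was expressed at a low level and fell with cisplatin. Vehicle tumors held 9.53, 7.56, 6.73, 7.84 and 7.34 CPM, and cisplatin tumors 6.12, 4.62, 4.96, 4.69 and 6.23 CPM. The groups did not overlap, and the log2 fold change was -0.55 (95% interval -0.80 to -0.30; adjusted P = 0.00331, edgeR). Cotreatment tumors held 6.70, 5.51, 6.48, 7.18 and 6.08 CPM, reaching into the KW6002 range of 7.03 to 9.79 CPM. Cotreatment with KW6002 gave -0.40 (adjusted P = 0.0113, edgeR), a call absent from the later run alone (-0.25, adjusted P = 0.332), and cotreatment with vehicle gave -0.29 (adjusted P = 0.0631, edgeR), which missed the threshold but passed it with the run as a term (-0.32, adjusted P = 0.0431, edgeR). The fall was not shown to differ by KW6002, as the interaction was 0.15 (95% interval -0.20 to 0.50; adjusted P = 0.753, edgeR).

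The sulfotransferases differed from each other. Chst11 (ENSMUSG00000034612, chromosome 10), the most abundant of the 10 genes per length, stood at 129.9, 129.2, 129.1, 132.5 and 138.2 CPM in vehicle and 154.2, 147.5, 194.2, 143.2 and 157.4 CPM in cotreatment tumors. The groups did not overlap, yet the log2 fold change of 0.27 (adjusted P = 0.0164, edgeR) was under the fold limit and was not called. Cotreatment exceeded cisplatin by 0.30 (adjusted P = 0.039, edgeR) and KW6002 by 0.30 (adjusted P = 0.00954, edgeR), again under the limit, which all 3 differences passed without cotreatment replicate 4 (0.32 to vehicle, 0.34 to cisplatin and 0.34 to KW6002). Leaving out 1 tumor at a time gave 0.21 to 0.32 for vehicle, 0.22 to 0.39 for cisplatin and 0.23 to 0.34 for KW6002, the lowest of each without cotreatment replicate 3. Cotreatment replicate 4 had skeletal muscle markers summing to 1090 CPM, against 5.18 to 82.1 CPM in the other cotreatment tumors, and their part in this was not tested. The difference from cisplatin also passed without cisplatin replicate 1 (0.39), and that from KW6002 without KW6002 replicate 4 (0.33), without cotreatment replicate 2 (0.33) and within the earlier run (0.45). Cisplatin with vehicle gave -0.03 (95% interval -0.20 to 0.15; adjusted P = 0.864, edgeR). In the interaction Chst11 gave 0.33 (adjusted P = 0.266, edgeR), the 1 unadjusted P under 0.05 among these genes.

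Chst3 (ENSMUSG00000057337, chromosome 10) was scarce, with 6 to 177 reads per tumor. KW6002 tumors held 5.50, 1.39, 1.01, 1.12 and 0.687 CPM, and cotreatment tumors 0.832, 0.165, 0.546, 0.716 and 0.749 CPM. KW6002 replicate 1 stood far above the others. The log2 fold change of -1.69 (adjusted P = 0.012, edgeR) was called, but without KW6002 replicate 1 it was -0.80 and was not (adjusted P = 0.097, edgeR). Nor was it called within the earlier run (-2.72, adjusted P = 0.0633), within the later run (-0.35, adjusted P = 0.582) or with only those tumors fitted (adjusted P = 0.0577, edgeR). That tumor also had the highest summed level of T and NK cell markers, 27.0 CPM against 3.84 to 11.5 CPM in the other KW6002 tumors, and the part of this in the result was not tested. Vehicle tumors held 33, 28, 23, 51 and 31 reads, or 0.751 to 1.40 CPM, and cisplatin tumors 0.710, 0.229, 0.333, 0.215 and 0.488 CPM. Although these did not overlap, the log2 fold change of -1.43 was not called (adjusted P = 0.0694, edgeR). It was called in 7 of 30 alternatives. Among these were DESeq2 (adjusted P = 0.0306, DESeq2), the replicate block, run as a term, only the groups compared and the later run alone. The others left out KW6002 replicate 1 (adjusted P = 0.00973, edgeR) or cisplatin replicate 1 (adjusted P = 0.0425, edgeR).

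**Figure D3:**
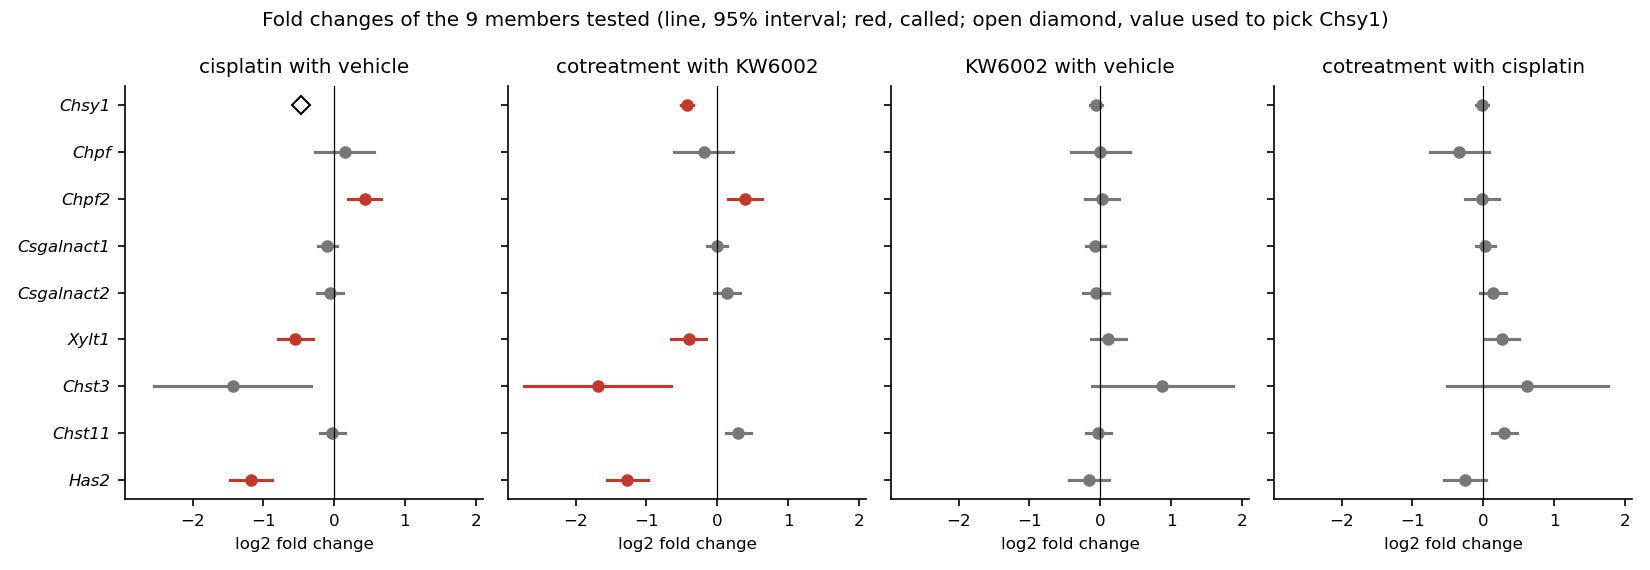
Log2 fold changes of the 9 genes that passed the filter in 4 comparisons; lines are 95% intervals, red marks a call and the open diamond is the value by which Chsy1 was picked. Red points appear in the comparisons of a cisplatin group with a group without cisplatin, and none in KW6002 with vehicle or cotreatment with cisplatin.

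By comparison, 4 of the 9 genes tested passed both thresholds in cisplatin with vehicle (Chsy1, Chpf2, Xylt1 and Has2), beside 10.6% of all 16665 genes tested; Chsy1 is there by choice, and nothing is read from its count. In cotreatment with vehicle 3 of 9 did (Chsy1, Chpf2 and Has2), beside 23.5% of all genes, where Chsy1 again counts through tumors used to pick it. In cotreatment with KW6002 5 of 9 did, 4 lower (Chsy1, Xylt1, Chst3 and Has2) and 1 higher (Chpf2), beside 23.3% of all genes, 10.7% lower and 12.6% higher. There Chsy1 counts by the fit of all 20 tumors, whose estimate of spread also draws on those used to pick it. Groups did not overlap for 4 of 9 genes in cisplatin with vehicle, 3 of 9 in cotreatment with vehicle and 4 of 9 in cotreatment with KW6002, beside 10.4%, 24.7% and 24.9% of all genes. Chsy1 is in all 3 of these counts, by choice in the first, and nothing is read from its part in them. With so few genes these counts are a description. No gene of the 9 was called in KW6002 with vehicle (beside 0.0% of all genes), in cotreatment with cisplatin (beside 4.0%) or in the interaction (beside 0.066%). DESeq2 called 0 of the 9 in each of these, beside 0, 872 and 263 of all genes. At an unadjusted P under 0.05 there were 0 of 9 in KW6002 with vehicle, beside 339 of 16665 genes. There were 2 of 9 in cotreatment with cisplatin (Xylt1 and Chst11), beside 3883 of 16665 genes. In the interaction there was 1 of 9, beside 2034 of 16665 genes. The median log2 fold change over the 9 was -0.19 in cotreatment with KW6002, against -0.01 over all genes tested. The comparisons with vehicle share its 5 tumors, cotreatment enters 3 of the comparisons between groups, and the interaction draws on all 4 groups.

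Levels between genes were compared as CPM per kilobase of exon. In vehicle tumors the order was Chst11 (23.8 ± 0.691), Csgalnact1 (21.4 ± 1.3), Chsy1 (16.0 ± 0.412), Chpf (13.5 ± 3.78), Csgalnact2 (13.1 ± 1.2), Chpf2 (7.89 ± 1.37), Has2 (4.59 ± 0.266), Xylt1 (0.808 ± 0.109), Chst3 (0.163 ± 0.0368) and Chsy3 (0.0178 ± 0.00664; SD, n = 5). The ranges of Chsy1 and Chpf, and of Chpf and Csgalnact2, overlapped, and the other neighbours did not. In cisplatin tumors the range of Chsy1 (11.2 to 11.8) lay inside those of Chpf (9.86 to 20.9), Csgalnact2 (10.9 to 14.5) and Chpf2 (8.71 to 13.7), so these 4 genes had no order beyond their spread.

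Genes of the wider pathway were read from lists chosen with earlier results of these data known. In cotreatment with KW6002, the comparison of the counts below, 10.7% of all genes tested were called lower and 12.6% higher, and with lists this small the counts are a description. Of 7 linkage region genes tested, 2 were called lower and none higher. These were Xylt1 and B3galt6, a galactosyltransferase of the linkage region, which stood at 13.0 ± 0.761 CPM in KW6002 and 9.19 ± 0.86 CPM in cotreatment tumors (log2 fold change -0.50, adjusted P = 5.36e-05, edgeR). Of 9 sulfation and epimerization genes tested, 2 were lower (10.7% over all genes) and none higher, and the call of Chst3 was lost without KW6002 replicate 1. Besides Chst3 this was Chst7, another 6-O-sulfotransferase, at 0.605 ± 0.156 against 0.213 ± 0.148 CPM. Chst7 passed the filter on low counts through the groups without cisplatin, where it is higher, so its call is no support, and it was lost within either run alone.

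Papss1, a synthase of the sulfate donor PAPS, was lower in both groups that received cisplatin. Papss1 averaged 308 ± 16.6 CPM in vehicle, 298 ± 22.7 in KW6002, 206 ± 27.1 in cisplatin and 194 ± 15.9 in cotreatment tumors (SD, n = 5). The log2 fold change was -0.58 in cisplatin with vehicle (adjusted P = 5.56e-05, edgeR) and -0.62 in cotreatment with KW6002 (adjusted P = 6.39e-06, edgeR). Among the other donor supply genes, Slc35d1, a Golgi and ER nucleotide sugar transporter, was called higher in cotreatment than in KW6002 tumors.

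Of 8 genes of hyaluronan synthesis and breakdown, 2 were called lower (Has2 and Hyal2) and 1 higher (Cemip) in cotreatment with KW6002, beside 10.7% and 12.6% of all genes. Cemip, which takes part in hyaluronan breakdown, stood at 0.908 ± 0.206 CPM in KW6002 and 1.69 ± 0.426 CPM in cotreatment tumors (log2 fold change 0.90, adjusted P = 0.00451, edgeR), with the groups overlapping. Hyal2, a hyaluronidase, stood at 38.3 ± 4.31 CPM in KW6002 and 30.1 ± 3.20 CPM in cotreatment tumors (-0.35, adjusted P = 0.0397, edgeR), a call lost in 14 of 32 alternatives. In cisplatin with vehicle, 2 of these 8 genes were called lower (Has2 and Cemip2) and 2 higher, beside 10.6% of all genes called. Those higher were Hyal1 (0.36, adjusted P = 0.0201, edgeR) and Cemip (0.70, adjusted P = 0.04, edgeR). Their calls were lost in 5 and 10 of 31 alternatives. Cemip2, a cell surface hyaluronidase, stood at 138 ± 6.36 CPM in the vehicle group and 92.7 ± 7.94 CPM in the cisplatin group (-0.57, adjusted P = 0.000128, edgeR). In cotreatment with KW6002 Cemip2 gave -0.20 and was not called (adjusted P = 0.0707, edgeR). Has3, another hyaluronan synthase, was called in cotreatment with vehicle (0.48, adjusted P = 0.0177, edgeR), at 3.70 ± 0.418 against 2.66 ± 0.432 CPM, and the call was lost without vehicle replicate 5 and within the later run. Has3 was not called in cotreatment with KW6002 (0.32, adjusted P = 0.105, edgeR) or in cisplatin with vehicle (0.27, adjusted P = 0.234, edgeR). Of the 7 receptors and binding proteins tested, 2 were called higher in cisplatin with vehicle (Stab1 and Lyve1) and none lower, beside 10.6% of all genes called, and 1 (Layn) was called higher in cotreatment with KW6002, beside 12.6%. Lyve1, a receptor of lymphatic endothelium and some macrophages, stood at 20.5 ± 3.69 CPM in vehicle and 38.9 ± 12.4 CPM in cisplatin tumors (0.92, adjusted P = 0.0274, edgeR), a call lost in 6 of 31 alternatives. Layn, a membrane hyaluronan receptor, stood at 42.8 ± 2.13 CPM in KW6002 and 55.2 ± 5.01 CPM in cotreatment tumors (0.37, adjusted P = 0.037, edgeR), a call lost in 9 of 32. Stab1, a scavenger receptor of macrophages and sinusoidal endothelium, was higher in cisplatin than in vehicle tumors (0.61, adjusted P = 0.0241, edgeR) and lower in cotreatment than in cisplatin tumors (-0.66, adjusted P = 0.0316, edgeR). The first call was lost in 8 of 31 alternatives, among them without vehicle replicate 2, 3 or 4 or cisplatin replicate 3 or 4. The second was lost in 12 of 32, among them within either run and without cisplatin replicate 3, 4 or 5 or cotreatment replicate 1, 2, 3 or 5. Summed macrophage markers were 2290 to 3410 CPM in vehicle, 3150 to 4380 in cisplatin and 2670 to 3910 in cotreatment tumors, and their part in this was not tested.

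Among chondroitin sulfate core proteins, Cspg4, a surface proteoglycan of pericytes, fell from 6.60 ± 2.89 CPM in KW6002 to 2.19 ± 0.723 CPM in cotreatment tumors (-1.59, adjusted P = 0.000146, edgeR), while Dcn (decorin) was higher (0.37, adjusted P = 0.00293, edgeR). Of 8 core protein genes tested, 1 was lower and 2 higher, beside 10.7% and 12.6% of all genes. Heparan sulfate enzymes, which compete for the same linkage region, had 3 of 16 called higher and 2 lower in cotreatment with KW6002, beside 12.6% and 10.7% of all genes. Sulf2, an extracellular 6-O-endosulfatase, rose from 64.2 ± 10.6 to 113 ± 10.3 CPM (0.81, adjusted P = 3.48e-06, edgeR) and the 6-O-sulfotransferase Hs6st1 from 129 ± 8.37 to 178 ± 9.45 CPM (0.46, adjusted P = 1.6e-06, edgeR). Of 12 lysosomal breakdown genes, 2 were lower, Glb1 (-0.47) and Naglu (-0.33), and none higher, beside the same 10.7% and 12.6%. The call of Naglu was lost in 8 of 32 alternatives, among them without KW6002 replicate 2 or 3 or cotreatment replicate 3.

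**Figure D4:**
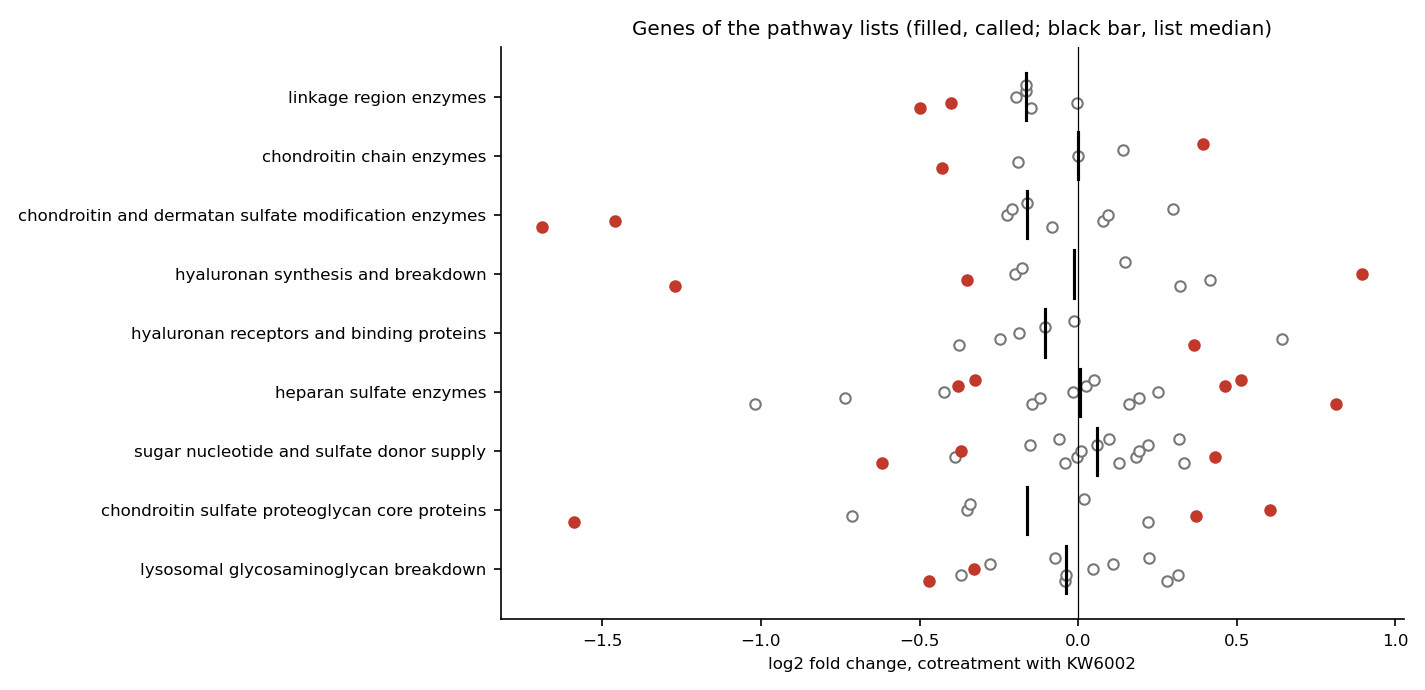
Log2 fold change of cotreatment with KW6002 for each gene tested in the pathway lists; filled points were called and black bars are list medians. Most lists spread to both sides of 0, with Chst3, Chst7 and Cspg4 furthest to the left.

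The genes whose levels were most like those of Chsy1 were sought among 12739 annotated genes with a mean of at least 50 counts, as a description over the same 20 tumors that share the treatment groups. By Pearson correlation of log2 CPM the leading genes were Hbb-bt (0.985), Hbb-bs (0.984), Fut8 (0.969), Ermp1 (0.965) and Mest (0.961), and Has2 ranked 9th with 0.957. Hbb-bt and Hbb-bs, beta globins of red blood cells, averaged 9.58 and 44.5 CPM in vehicle, 4.80 and 25.7 in KW6002, 0.0 and 0.0223 in cisplatin and 0.0 and 0.0394 in cotreatment tumors, nearly all of it without cisplatin, and their part in the results was not tested. Xylt1 ranked only 1080th with 0.762, and Chpf2 ranked 12020th with -0.79. By deviations from the group means, which take the treatment groups away, they were Zcchc10 (0.838), Rpl36a (0.826), Slc4a1ap (0.775), Ccn4 (0.771) and Ermp1 (0.77), with Has2 at 0.576.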

How the data were processed

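Whole LLC1 tumors were profiled by stranded polyA RNA-Seq. The deposited values are raw read counts per gene; the submitters' processing notes name bcl2fastq 2.17.1.14, STAR, HTSeq 0.6.1p1 and mm10. CPM and per-length values were computed here. Gene names and exon lengths came from GENCODE annotation of GRCm38 for 35142 of 35226 genes. All 20 tumors, 5 per group, were fitted together with edgeR 4.0.16 (R 4.3.3; TMM scaling, filterByExpr, quasi-likelihood test, Benjamini-Hochberg adjustment over 16665 genes), and log2 CPM used a prior count of 2. Thresholds were an adjusted P of 0.05 and a log2 fold change of 0.32. The members and lists were chosen with earlier results of these data known. Beyond the members, up to 4 called genes per list and direction, by smallest adjusted P, could be named. Alternatives were DESeq2 1.42.0, other scalings and filters, no fold limit, only the groups compared, the replicate number as a block, library code run, a gene length and GC offset, and leaving out each tumor. Replicate numbers did not pair the tumors. P values measure the spread between these tumors. The fit was tested on simulated data. Promoter sequences are RefSeq's (GRCm38.p6). Total counts of 28.4 to 41 M set the precision; no duplicate columns were found (0 identical). One result is not reported here.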

Additional observations from a re-analysis of the deposited data

Results flagged for a closer look

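In 156 groups of 5 tumors (10 members and 29 pathway genes in 4 groups), 6 had a tumor standing apart from the other 4, where chance alone gives about 1 in 20. Chst3 stood at 5.50 CPM in KW6002 replicate 1, against 0.687 to 1.39 CPM in the others. Chst11 stood at 194 CPM in cotreatment replicate 3, against 143 to 157 CPM. Among pathway genes, Cemip was low in KW6002 replicate 5 (0.542 CPM, others 0.967 to 1.04 CPM), and Lyve1, a hyaluronan receptor, was high in KW6002 replicate 3 (34.8 CPM, others 19.5 to 21.5 CPM). Hs3st5, a heparan sulfate 3-O-sulfotransferase, was high in cisplatin replicate 1 (5.82 CPM, others 4.02 to 4.52 CPM). Papss1 was low in vehicle replicate 3 (278 CPM, others 312 to 318 CPM).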

How the results depend on the processing

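The fall of Chsy1 in cotreatment with KW6002 kept its direction in all 32 alternatives, at -0.44 to -0.40; fits that hold the tumors by which it was picked are given with no P. Has2 kept its direction and call (-1.39 to -1.15). The number of members called in cotreatment with KW6002 was 2 in the later code run alone, in place of 5. It was 5 in the earlier run, but there Chst11 was called and Chst3 was not. The earlier run was an alternative added after seeing the data, as was the gene length and GC offset. In cotreatment with cisplatin the number of members called was 0 to 1 when a tumor was left out (1, Chst11, without cisplatin replicate 1 or cotreatment replicate 4) and 1 with no fold limit. Without KW6002 replicate 1 the call of Chst3 was lost. Replicate numbers were shared across groups, but 12 of 30 same-numbered pairs had a correlation of deviations over 0.1 and 3 were best with their own number, so the block was an alternative: with the replicate block the log2 fold change of Chsy1 in cotreatment with KW6002 was -0.43, and members called in cisplatin with vehicle, Chsy1 included by choice, were 5 in place of 4, beside 1610 in place of 1762 of all genes. Over all genes, the later run alone gave 2209 calls in place of 3914 for cotreatment against vehicle, 1654 in place of 3884 against KW6002, 1 in place of 667 against cisplatin, and 2743 in place of 1762 for cisplatin against vehicle. Calls for cotreatment against cisplatin were 287 in the earlier run and 217 with only the groups compared. The interaction had 11 calls, and 263 by DESeq2, 21 with no filter, 39 with at least 10 counts in every tumor, 17 with run as a term, 40 with the length and GC offset, 0 with the block and 0 in the later run; the cause was not tested. With no fold limit, the calls rose to 2752 for cisplatin against vehicle, and for cotreatment to 5906 against vehicle, 1086 against cisplatin and 5837 against KW6002, since smaller changes then count. At 1 to 11 reads per tumor, Chsy3 was too low to test.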
